A study of Mus musculus with 6 samples.

Results

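The enzymes of the kynurenine pathway were followed in the hippocampus of mice that lack the aryl hydrocarbon receptor and of wild-type mice. The genes Ido1, Ido2, Tdo2, Afmid, Kmo, Kynu, Haao, Aadat, Acmsd and Qprt were taken as the pathway's enzymes, and a probe set was used where the platform annotation pairs it with exactly 1 of these symbols. All 10 genes were measured, each by 1 such probe set, among 22180 genes on the array. Total RNA of hippocampi dissected from hemibrains was hybridised to Affymetrix whole-transcript arrays, with 3 Ahr-KO mice and 3 wild-type mice and a separate array for each mouse. The labels give tissue and genotype for both groups, with no treatment. For strain, age, the form of the Ahr allele and the cell types that lack the receptor, nothing is stated in the sources used. The values are log2 signals, which rank the same probe set across arrays but do not compare the levels of different genes.

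Tryptophan that is not built into protein is mostly broken down through kynurenine. Dioxygenases open its indole ring, a formamidase releases kynurenine, and the pathway then splits into an arm that leads through hydroxykynurenine and quinolinic acid to NAD and an arm that ends in kynurenic acid. Kynurenine and kynurenic acid bind the aryl hydrocarbon receptor, and in the brain quinolinic acid activates NMDA receptors while kynurenic acid blocks them. The liver carries most of the pathway in the body. In the brain its later enzymes are associated with microglia and its aminotransferases with astrocytes.

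No enzyme of the pathway passed the test between genotypes. With limma, 0 of the 10 genes had an adjusted p under 0.05, and the same was true of 0% of all genes tested (0 of 22180). At an unadjusted p under 0.05 stood 1 of the 10, Qprt, beside 6.18% of all genes (1371), and 3.53% of all genes had such a p and were higher in Ahr-KO. In none of the 10 were the 3 arrays of one genotype clear of the 3 arrays of the other, which held for 11.9% of all genes. The mean was higher in Ahr-KO for 7 of the 10 and for 50.7% of all genes, and the median difference, Ahr-KO minus wild type, was 0.03 log2 over the 10 and 0.00188 over all genes. The 95% intervals of the 10 differences reached at most 0.56 log2 from 0, a 1.47-fold change, and 9 of the 10 intervals held 0.

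The pathway gave dim signals in this tissue. All 10 genes averaged below the median gene (6.50 log2), and 8 of the 10 below the median of all probe sets on the arrays (5.81), as did 40.8% of all genes. Afmid and Tdo2 were above it. The residual SD had a median of 0.17 log2 over the 10, 0.11 over all genes and 0.14 over genes below the array median. Detection calls were not used here, so a dim probe set cannot be separated from background, and a change in a gene near background is understated. In bulk tissue fewer cells of a type and less RNA per cell cannot be told apart. Neuronal markers were bright on every array, with Snap25, a synaptic vesicle fusion protein, at 13.16 to 13.25 log2 and Prox1, the granule cell factor of the dentate gyrus, at 9.48 to 10.02. Of the 3 listed liver genes, Alb, the liver's albumin, read 4.52 to 4.91 and Serpina1a 3.78 to 4.23, while Apoa1 read 5.83 to 6.04, above the median of all probe sets. Ahr itself was lower on the 3 Ahr-KO arrays (6.62, 6.91 and 6.74) than on the 3 wild-type arrays (7.68, 7.50 and 7.44), although the part of Ahr read by its probe set is not known here. It differed by -0.78 ± 0.10 (SE; limma, unadjusted p = 4.3e-05, adjusted p = 0.320) and so did not pass the threshold either. The absence of calls among the enzymes therefore does not show that they are unchanged. Choroid plexus genes stood apart on 1 array of each genotype. Over the 7 measured of 8 listed, Ahr-KO array 1 averaged 8.20 log2 and wild-type array 2 averaged 7.66, while the other 4 lay between 6.05 and 6.16, and each enzyme's difference is therefore also given below without those 2 arrays (the 2 choroid-rich arrays).

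**Figure D1:**
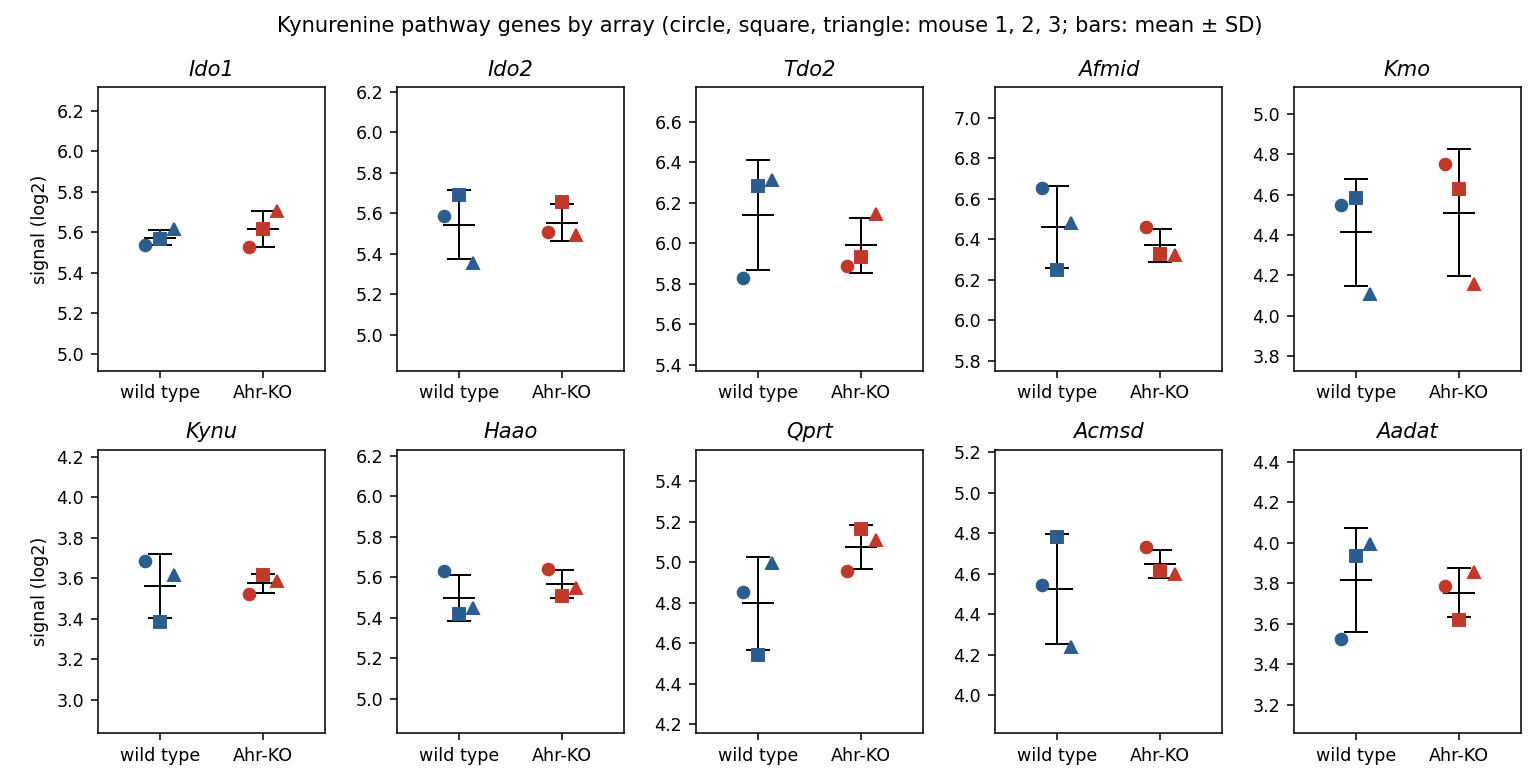
Log2 signal of the 10 kynurenine pathway genes on each array, with wild type in blue and Ahr-KO in red, mouse 1, 2 and 3 of each genotype as circle, square and triangle, and bars for the mean ± SD (n = 3). Every panel spans the same log2 range, and in all 10 the points of the genotypes overlap.

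The receptor binds DNA with its partner ARNT at elements with the core GCGTG, so the sequence around annotated starts of the enzymes was examined for it. RefSeq promoter windows (GRCm38.p6, 250 bases before and 50 after the start) were found for 7 of the 10 genes, namely Acmsd, Kmo, Tdo2, Qprt, Aadat, Afmid and Haao. The start of the window is the outer 5′ end of the annotated gene in 4 of the 7, while it lies inside the gene by 281 bases in Aadat, 416 in Afmid and 2191 in Haao, whose window is thus at an internal start. GCGTG was searched on both strands, so also as CACGC, and no other motif was searched. It occurred in 3 of the 7 windows (42.9%) and in 32.4% of all 32851 windows. In Tdo2 it began 194 bases before the start of its window, in Haao 137 bases before the internal start, within the annotated gene, and in Acmsd 5 bases after the start. The 250 bases before the window's start of Tdo2 (chr3:81975729-81975978, minus strand) and Haao (chr17:83846791-83847040, minus strand) are shown because they hold the core, which is in capitals, and those of Qprt (chr7:127122030-127122279, minus strand) because Qprt had the lowest p of the 10 and holds none. A match of these letters is a description and does not show binding.
Tdo2: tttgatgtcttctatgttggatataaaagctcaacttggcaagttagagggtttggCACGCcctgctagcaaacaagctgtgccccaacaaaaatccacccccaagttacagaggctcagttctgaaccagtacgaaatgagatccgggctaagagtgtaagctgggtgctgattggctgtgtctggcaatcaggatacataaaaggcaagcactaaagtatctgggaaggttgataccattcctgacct
Haao: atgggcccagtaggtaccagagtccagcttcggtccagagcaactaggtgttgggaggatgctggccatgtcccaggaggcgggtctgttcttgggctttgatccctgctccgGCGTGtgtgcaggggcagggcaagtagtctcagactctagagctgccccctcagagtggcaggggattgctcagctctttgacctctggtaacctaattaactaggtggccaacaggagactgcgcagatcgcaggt
Qprt: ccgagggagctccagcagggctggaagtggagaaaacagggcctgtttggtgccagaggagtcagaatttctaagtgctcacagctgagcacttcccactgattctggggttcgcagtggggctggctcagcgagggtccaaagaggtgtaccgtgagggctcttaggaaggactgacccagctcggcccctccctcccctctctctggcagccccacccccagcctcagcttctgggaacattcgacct

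The first step of the pathway is carried out by the dioxygenases Ido1, Ido2 and Tdo2. Ido1, which interferons induce in many tissues, read 5.53, 5.61 and 5.71 log2 on the 3 Ahr-KO arrays and 5.54, 5.57 and 5.61 on the 3 wild-type arrays. These 6 values spanned 0.18 log2, the narrowest range of the 10 genes, and the wild-type values lay inside the Ahr-KO range. The difference was 0.04 ± 0.08 (SE; limma adjusted p = 0.958), with a 95% interval of 0.911-fold to 1.16-fold, and it was 0.08 without the 2 choroid-rich arrays. Ido2, a related dioxygenase and the next coding gene to Ido1 on the chromosome, read 5.51, 5.66 and 5.49 in Ahr-KO and 5.59, 5.69 and 5.36 in wild type. Here the highest and the lowest array were both wild type. The means of Ido2 were 5.55 ± 0.09 and 5.54 ± 0.17 (SD, n = 3 each), a difference of 0.01 ± 0.10 (SE; limma adjusted p = 0.995) that was 0.10 without the 2 choroid-rich arrays.

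Tdo2, tryptophan dioxygenase, is the liver's main enzyme for this step and in the mouse hippocampus its transcript marks dentate granule neurons. Its signal was 5.89, 5.93 and 6.14 log2 on the Ahr-KO arrays and 5.83, 6.28 and 6.31 on the wild-type arrays. Wild-type arrays 2 and 3 were the highest and wild-type array 1 the lowest of the 6, so the Ahr-KO values lay inside the wild-type range. The means were 5.99 ± 0.14 and 6.14 ± 0.27 (SD, n = 3 each), and Tdo2 differed by -0.15 ± 0.14 (SE; limma adjusted p = 0.885). Without wild-type array 1 the difference was -0.31 (unadjusted p = 0.0183, adjusted p = 0.780), without wild-type array 3 it was -0.07, and without the 2 choroid-rich arrays it was -0.03. The mean of the 6 listed dentate granule markers was also lowest on wild-type array 1, at 8.79 log2. It was 8.87 on wild-type array 3, where Tdo2 was highest, 9.01 on wild-type array 2 and 9.01 to 9.14 in Ahr-KO. Among these markers Prox1 read 9.48 and the desmosomal gene Dsp 8.30 on wild-type array 1, each the lowest of its 6 values, as was Trpc6. C1ql2 and Lct were lowest on wild-type array 3 and Stxbp6 on wild-type array 2. The part of these markers in the Tdo2 values was not tested.

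Afmid, arylformamidase, turns the first product into kynurenine. It read 6.46, 6.32 and 6.32 log2 in Ahr-KO and 6.65, 6.25 and 6.48 in wild type. The Ahr-KO values were close together and fell between the wild-type ones, which held both the highest and the lowest array. The difference of -0.09 ± 0.11 (SE) was smaller than the wild-type SD of 0.20 (limma adjusted p = 0.916). Without the 2 choroid-rich arrays Afmid differed by -0.24 (unadjusted p = 0.0548, adjusted p = 0.829).

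Kmo, kynurenine monooxygenase, takes kynurenine into the quinolinic acid arm and in brain is associated with microglia. The 3 Ahr-KO arrays read 4.75, 4.63 and 4.16 log2 and the 3 wild-type arrays 4.55, 4.58 and 4.11. The array numbered 3 was far the lowest in each genotype, and the 6 values spanned 0.64 log2, the widest range of the 10 genes. Kmo averaged 4.51 ± 0.31 and 4.41 ± 0.26 (SD, n = 3 each), a difference of 0.10 ± 0.18 (SE; limma adjusted p = 0.956) that was 0.06 without the 2 choroid-rich arrays. The mean of the 6 measured microglial markers, of 7 listed, was 7.92 log2 (Ahr-KO array 3) and 7.96 (wild-type array 3), inside the range of 7.76 to 8.07 set by the other 4 arrays. Arrays 3 of both genotypes formed the lowest pair for 2 of the 10 genes, Kmo and Ido2, and for 5.59% of all genes.

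Kynu and Haao act next on the same arm. Kynu, kynureninase, had the dimmest probe set of the 10 and read 3.52, 3.61 and 3.59 log2 in Ahr-KO and 3.68, 3.38 and 3.62 in wild type. The Ahr-KO values lay inside the wild-type range, and the difference was 0.01 ± 0.09 (SE; limma adjusted p = 0.992), turning to -0.05 without the 2 choroid-rich arrays. Haao, the hydroxyanthranilate dioxygenase whose product closes by itself into quinolinic acid, read 5.64, 5.51 and 5.55 in Ahr-KO and 5.63, 5.42 and 5.45 in wild type. Array 1 was the highest of each genotype, and the difference of 0.07 ± 0.09 (SE) had a 95% interval from 0.915-fold to 1.20-fold (limma adjusted p = 0.924) and turned to -0.01 without the 2 choroid-rich arrays.

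Qprt, quinolinate phosphoribosyltransferase, removes quinolinic acid and passes it to NAD synthesis, and it had the lowest p of the 10 genes. Its signal was 4.96, 5.17 and 5.11 log2 on the Ahr-KO arrays and 4.85, 4.55 and 4.995 on the wild-type arrays. Ahr-KO arrays 2 and 3 were the highest and wild-type array 2 was far the lowest, while Ahr-KO array 1 lay below wild-type array 3. Qprt averaged 5.08 ± 0.11 in Ahr-KO and 4.80 ± 0.23 in wild type (SD, n = 3 each), a difference of 0.28 ± 0.12 (SE), or 1.21-fold with a 95% interval up to 1.47-fold. In limma its unadjusted p of 0.0483 became 0.806 after adjustment over all genes, and it ranked 1319 of 22180 genes by p. Without wild-type array 2 the difference was 0.15 (adjusted p = 0.870), and without the 2 choroid-rich arrays 0.22 (0.847). Over all alternatives tried the Qprt difference stayed above 0, from 0.15 to 0.38, with an adjusted p of 0.630 to 0.973. The unadjusted p was under 0.05 in 9 of 17, some of which leave the difference itself unchanged.

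Acmsd and Aadat lead away from quinolinic acid. Acmsd, a decarboxylase that diverts the substrate before it closes into quinolinic acid, read 4.73, 4.61 and 4.60 log2 in Ahr-KO and 4.55, 4.78 and 4.24 in wild type. Ahr-KO array 1 and wild-type array 2, the arrays with high choroid plexus genes, were its highest pair, as they were for 7.15% of all genes and for none of the other 9 enzymes. The means were 4.65 ± 0.07 and 4.52 ± 0.27 (SD, n = 3 each), a difference of 0.12 ± 0.13 (SE; limma adjusted p = 0.902). The Acmsd difference was 0.21 without the 2 choroid-rich arrays (limma, unadjusted p = 0.133, adjusted p = 0.885) and 0.10 with the choroid plexus mean as a covariate. Without wild-type array 2 it was 0.25, and without wild-type array 3 it was -0.02. A further probe set, which the annotation pairs with both Acmsd and 2900009J06Rik and which was therefore not used for the gene, read 6.12 to 6.41 on the 6 arrays. Aadat, the aminotransferase that makes kynurenic acid, read 3.79, 3.62 and 3.86 in Ahr-KO and 3.52, 3.94 and 3.99 in wild type. As in Tdo2, wild-type array 3 was the highest, followed by wild-type array 2 and Ahr-KO array 3, and wild-type array 1 was the lowest. Aadat differed by -0.06 ± 0.13 (SE; limma adjusted p = 0.962), and by -0.02 without the 2 choroid-rich arrays.

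**Figure D2:**
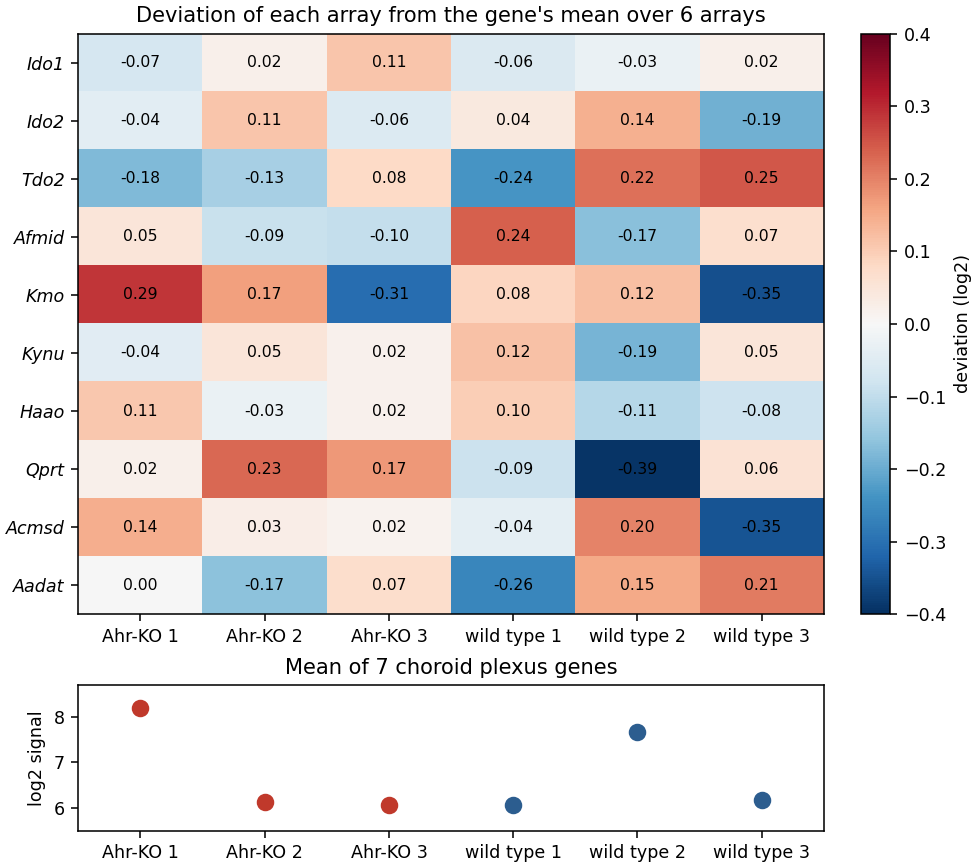
Deviation of each array from the gene's mean over the 6 arrays (log2, red higher and blue lower) for the 10 kynurenine pathway genes, and under it the mean log2 signal of 7 choroid plexus genes on the same arrays. No array is high or low for the whole pathway, Kmo is low on array 3 of both genotypes, and the choroid plexus mean is high on Ahr-KO array 1 (8.20) and wild-type array 2 (7.66).

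No array was high or low for all enzymes. Wild-type array 2 held the lowest value for 4 of the 10 genes and the highest for 2, wild-type array 3 the lowest for 3 and the highest for 2, and the median deviation of the 10 genes lay between -0.0002 and 0.05 log2 on every array. For Tdo2 and Afmid, the enzymes above the array median, the genes with the most similar pattern over the 6 arrays were sought among 13129 genes above that median. Gas2l3 (Pearson r = 0.992), Wac (0.991) and Nol8 (0.989) were nearest to Tdo2, and Zfp408 (0.968), Cntn5 (0.964) and Sec16b (0.964) to Afmid. These are the highest of 13129 correlations over 6 arrays and are given as a description only.

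Around the pathway, 43 of 46 listed genes of tryptophan transport and use, NAD synthesis, kynurenine receptors and enzyme inducers were measured. With limma 0 of the 43 had an adjusted p under 0.05. At an unadjusted p under 0.05 there were 3 higher and 1 lower in Ahr-KO, and the genotypes did not overlap in 9, with 5 higher and 4 lower. The 43 genes and the 3 higher ones include Ddo, which is not a tryptophan enzyme. The background shares given above were 6.18% and 11.9% of all genes. Their median difference was 0.03 log2.

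All 4 listed genes of tryptophan and kynurenine transport had higher means in Ahr-KO, as did 50.7% of all genes. None of the 4 passed the threshold across all genes. Slc7a8, the light chain LAT2, read 11.50, 11.46 and 11.51 log2 in Ahr-KO and 11.28, 11.24 and 11.28 in wild type. Its genotypes were clear of each other, and each genotype's SD was 0.02 to 0.03 log2. The difference was 0.22 ± 0.07 (SE), 1.17-fold (limma, unadjusted p = 0.0102, adjusted p = 0.770). It ranged from 0.21 to 0.24 over 18 alternatives, some of which leave the difference itself unchanged. The adjusted p was 0.563 to 0.973 and the unadjusted p was under 0.05 in 17 of them. Slc7a5, the light chain LAT1 of the blood-brain barrier, read 9.71, 9.95 and 9.87 in Ahr-KO and 9.78, 9.41 and 9.40 in wild type. Wild-type array 1 lay among the Ahr-KO values and the other wild-type arrays below them all. Slc7a5 differed by 0.32 ± 0.12 (SE; limma, unadjusted p = 0.0294, adjusted p = 0.797), and with single arrays left out by 0.25 (without wild-type array 3) to 0.44 (without wild-type array 1). Its unadjusted p rose above 0.05 without Ahr-KO array 2 (0.0916) or 3 (0.0706), wild-type array 2 (0.0964) or 3 (0.103) or the 2 choroid-rich arrays (0.0571), and with a replicate block (0.0563). Slc3a2, the heavy chain that both pair with, differed by 0.03 ± 0.09 (SE), and the aromatic amino acid transporter Slc16a10 by 0.17 ± 0.09.

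**Figure D3:**
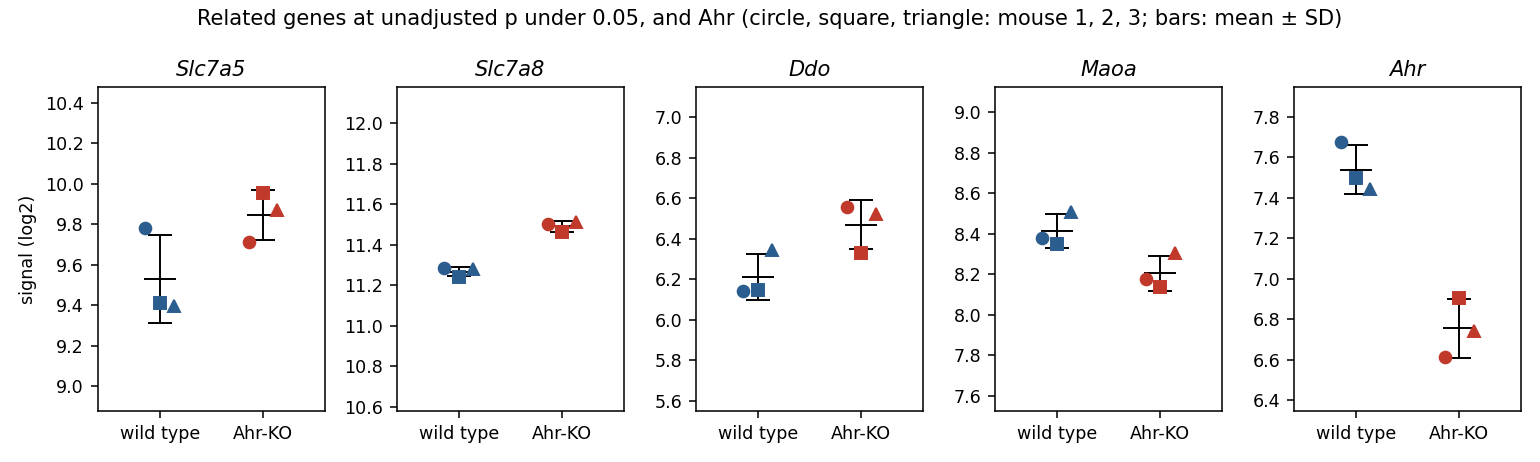
Log2 signal by array of the 4 related genes with an unadjusted p under 0.05 and of Ahr, with wild type in blue, Ahr-KO in red, mouse 1, 2 and 3 as circle, square and triangle, and bars for the mean ± SD (n = 3). The genotypes are clear of each other in Slc7a8, Maoa and Ahr and overlap in Slc7a5 and Ddo.

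Other branches of tryptophan metabolism went both ways. Maoa, the monoamine oxidase that breaks down serotonin, read 8.17, 8.14 and 8.30 log2 in Ahr-KO and 8.38, 8.35 and 8.51 in wild type. All 3 Ahr-KO arrays were below all 3 wild-type arrays, a difference of -0.21 ± 0.08 (SE; limma, unadjusted p = 0.0342, adjusted p = 0.797). Over 18 alternatives the Maoa difference ran from -0.26 to -0.16. Its unadjusted limma p was under 0.05 in 13 of them and reached 0.117. The dim probe set of Tph1, a tryptophan hydroxylase, differed by -0.14 ± 0.07 (SE). Of the other aminotransferases that can make kynurenic acid, Kyat1 differed by -0.04 ± 0.09, Kyat3 by -0.02 ± 0.13 and the bright mitochondrial Got2 by -0.0070 ± 0.08. Ddo, listed with them although it is an oxidase of D-aspartate rather than a tryptophan enzyme, read 6.56, 6.33 and 6.52 in Ahr-KO and 6.14, 6.15 and 6.34 in wild type. In Ddo wild-type array 3 lay just above Ahr-KO array 2, and the difference was 0.26 ± 0.09 (SE; limma, unadjusted p = 0.0237, adjusted p = 0.794). Over 17 alternatives the Ddo difference ran from 0.19 to 0.33. Its unadjusted limma p was under 0.05 in 12 of them and reached 0.169 without the 2 choroid-rich arrays.

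In the listed groups of genes downstream of the pathway and of its inducers, none had an unadjusted p under 0.05. Among 9 NAD synthesis genes the mitochondrial NAD kinase Nadk2 stood at -0.21 ± 0.11 (SE) and Nmnat3, which makes NAD from its mononucleotide, at 0.20 ± 0.10. Nadk2 was at -0.12 without wild-type array 2 and also without the 2 choroid-rich arrays, and Nmnat3 at 0.09 without Ahr-KO array 2. In the later oxidation of tryptophan carbon, Gcdh, glutaryl-CoA dehydrogenase, differed by -0.17 ± 0.09 and the aldehyde dehydrogenase Aldh8a1 by -0.17 ± 0.10, both without overlap between genotypes. Gcdh was at -0.07 without the 2 choroid-rich arrays and at -0.10 without Ahr-KO array 1, and Aldh8a1 at -0.07 without Ahr-KO array 2. Among 6 measured of 7 receptors that kynurenines act on, the nicotinic receptor subunit Chrna7 stood at 0.28 ± 0.14 and the NMDA receptor subunits Grin2b at 0.15 ± 0.08 and Grin2c at -0.25 ± 0.15. Chrna7 ran from 0.18 without wild-type array 1 to 0.43 without wild-type array 2. Grin2b read 11.60, 11.63 and 11.61 log2 in Ahr-KO and 11.37, 11.56 and 11.45 in wild type, without overlap, and its difference was 0.09 when its probe sets were averaged. Of 9 measured inducers, of 10 listed, Irf1, an interferon-regulated factor upstream of Ido1, differed by 0.17 ± 0.08 and Ifng, interferon gamma, by 0.19 ± 0.09. Both were higher on all 3 Ahr-KO arrays, while Ido1 was not, and Ifng was at 0.11 without Ahr-KO array 3. Irf1 averaged 5.69 log2 and Ifng 4.73, below the array median of 5.81 as Ido1 did, so these signals cannot be separated from background. The same holds for Nmnat3, which averaged 5.19, and for Aldh8a1, which averaged 4.36. The adjusted p of the genes named here ran from 0.813 to 0.829 in limma. Of 6 listed interferon response genes 4 were measured, and their mean was 6.27 to 6.34 log2 on the Ahr-KO arrays and 6.03 to 6.14 on the wild-type arrays. In 3 of the 4 all Ahr-KO arrays were the higher, by 0.25 ± 0.09 (SE) for the interferon factor Irf7, 0.23 ± 0.08 for Oasl2 and 0.31 ± 0.09 for the class I histocompatibility gene H2-K1, while Ifit1 overlapped (0.17 ± 0.13). The unadjusted p in limma was 0.00986 for H2-K1, 0.0155 for Oasl2, 0.0242 for Irf7 and 0.230 for Ifit1. Of all genes, 6.18% had an unadjusted p under 0.05, and in 11.9% the genotypes did not overlap. None of the 4 interferon response genes passed the threshold (limma adjusted p from 0.770 to 0.866), and their part in the values of Irf1, Ifng and Ido1 was not tested. Marker lists of neurons and of dentate granule neurons also had higher means on all 3 Ahr-KO arrays. The neuron mean was 12.26 to 12.30 log2 in Ahr-KO and 12.22 to 12.24 in wild type. The dentate granule mean was at least 9.0137 in Ahr-KO and at most 9.0125 in wild type.

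**Figure D4:**
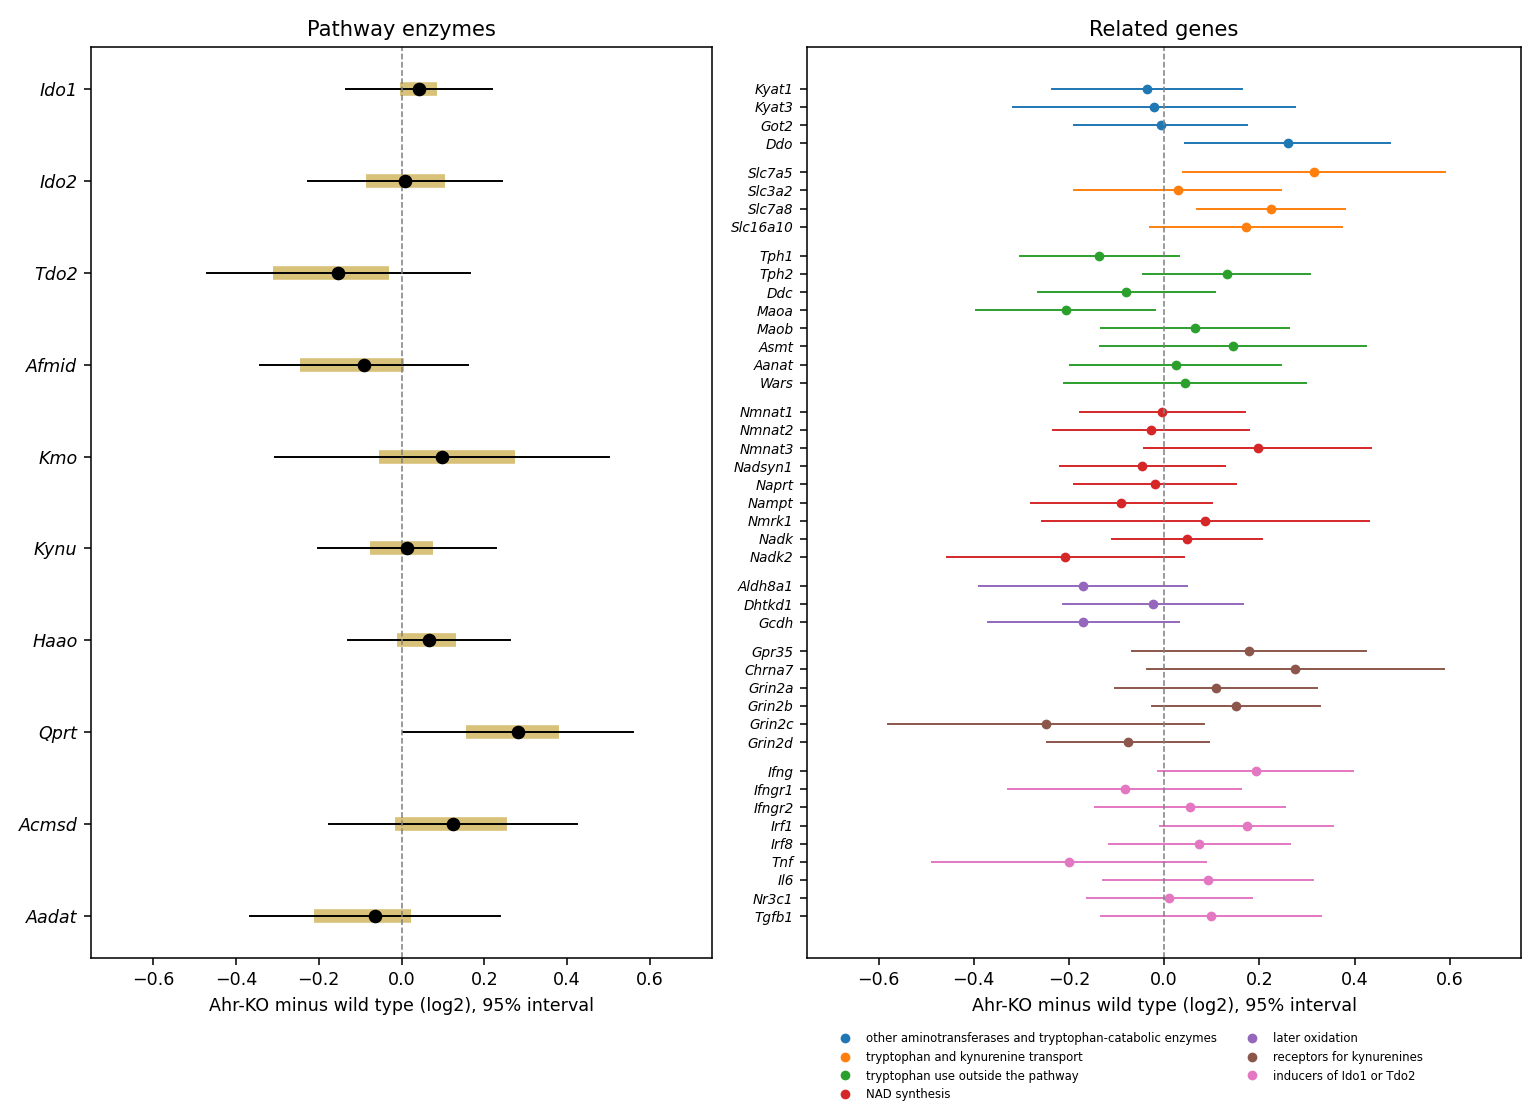
Difference between genotypes (Ahr-KO minus wild type, log2; point) with limma's 95% interval (line) for the 10 kynurenine pathway genes, left, and the 43 measured related genes coloured by group, right. The pale bars on the left give the range over the alternatives in processing, and only the interval of Qprt, from just above 0 to 0.56, leaves out 0 among the 10.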

How the data were processed

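Hippocampal RNA was compared between 3 Ahr-KO mice and 3 wild-type mice. Each deposited value is the log2 signal of a probe set, for which RMA and Affymetrix Expression Console are named per the submitters' processing notes. RMA quantile-normalizes arrays together, which removes overall shifts. RMA values also tend to compress fold changes. The build behind the probe sets is not given in the sources used here.

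Of 41345 probe sets 23521 carried 1 symbol, 1814 several and 16010 none. Symbols were looked up by Entrez ID in the RefSeq gene table (GRCm38.p6), which held 23328 of the 23521, and no symbol changed. The brightest probe set stood for each gene (22180 genes, 1082 with several). The comparison used limma 3.58.1 with R 4.3.3 (lmFit, eBayes, two-sided, Benjamini-Hochberg over all genes, threshold 0.05), tested on simulated data first. No permutation test is given, since 3 against 3 arrays allow no exact p below 0.1. Precision is limited by the number of arrays.

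The enzymes and all lists were chosen with earlier results of these data known. Named related genes are those at unadjusted p under 0.05 and the pair of lowest p in each group. Kyat3, Got2, Slc3a2, Slc16a10 and Grin2c come from outside this rule, after their values were seen. The named marker genes, among them those of the interferon response, come from separate lists and were not chosen by this rule. For Tdo2 and Afmid, the enzymes above the array median with the widest range, the 3 most similar genes are named. Alternatives covered the variance model, array weights, normalization, filters, probe set averaging, a replicate block and left-out arrays. Figures were drawn with matplotlib 3.10.9.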

Additional observations from a re-analysis of the deposited data

How the results depend on the processing

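No alternative put a pathway enzyme past the threshold (adjusted p from 0.630 to 0.999 over 166 comparisons, 152 with an unchanged direction and 14 with the opposite one). The intensity trend, robust variance, filter, probe set averaging, replicate block and symbols without update left each enzyme's difference exactly as it was. A direction could not turn under these alternatives, so the 152 include comparisons whose direction was fixed in advance. With an intensity trend 2 genes of the whole table passed, neither an enzyme of the pathway. Keeping only genes at or above the median gene mean removed all 10 enzymes, so it gave no value for them. With fewer genes tested, 785 had an unadjusted p under 0.05. At or above the lower quartile 6 of the 10 were left. The count of enzymes at an unadjusted p under 0.05 was 0 with an intensity trend, after quantile normalization, with a replicate block and without the 2 choroid-rich arrays, and 0 to 1 with single arrays left out. Without wild-type array 1 the enzyme counted was Tdo2 and not Qprt. The median difference over the 10 ran from 0.0036 to 0.053 log2 with single arrays left out, lowest without wild-type array 3 and highest without wild-type array 1. Directions turned under some alternative for every enzyme of the pathway except Tdo2 and Qprt. Those that turned include Acmsd (0.12 in the main fit), Kmo (0.10) and Afmid (-0.09). Ido2 was at -0.022 after quantile normalization, and without the 2 arrays Kynu was at -0.050 and Haao at -0.011. With single arrays left out the differences ran from -0.0035 to 0.086 for Ido1, -0.086 to 0.081 for Ido2, -0.20 to 0.0050 for Afmid, -0.054 to 0.27 for Kmo, -0.076 to 0.075 for Kynu, -0.21 to 0.024 for Aadat, -0.017 to 0.25 for Acmsd and -0.11 to 0.023 for Kyat1. The cause was not tested. The replicate block used mouse numbers that do not pair the mice. Deviations from the group means correlated between arrays of the same number at -0.15, -0.22 and 0.05, not every array correlated best with its own number, and the block moved the genes at an unadjusted p under 0.05 from 1371 to 1122. Dim signals limit what can be seen in 8 of the 10 enzymes.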

Other observations

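Nmrk1, the kinase that makes NAD precursors from nicotinamide riboside, is named after its values were seen. Ahr-KO array 1 read 6.77 log2 and wild-type array 2 read 6.82, the arrays with high choroid plexus genes, and the other 4 lay between 6.28 and 6.50. This pair of arrays was the highest for 7.15% of all genes. Between genotypes Nmrk1 differed by 0.09 ± 0.15 (SE; limma adjusted p = 0.952).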
